A study of Mus musculus with 21 samples.

Results

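The regions described here are 712 short p53 antibody peaks of Trp53 WT cells that had no overlapping peak in Trp53 KO cells and yet were absent from the deposited list of WT-specific peaks. They were selected from the deposited intervals themselves: a WT interval was taken when no KO interval overlapped it by 1 bp or more and when no WT-specific interval had the same chromosome, start and end. They made up 10.5% of the 6811 WT peaks, and 25.7% (95% exact binomial interval 24.1 to 27.4) of the 2768 WT peaks that no KO peak overlapped. The whole deposit held 16595 WT and KO p53 intervals, with 9784 in the KO list and 2127 in the WT-specific list. None of the 712 overlapped a WT-specific interval even in part. In the WT-specific list, 2114 entries coincide exactly with a WT peak, which left few that a different WT peak could overlap. This count was therefore nearly fixed in advance, and whether peak edges were shifted between the lists was not tested.

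The cells were ID8, an untreated immortalized line that derives from the ovarian surface epithelium of C57BL/6 mice, with the genotype Trp53-/- (KO) or Trp53+/+ (WT). The p53 antibody was used on 2 KO and 2 WT samples by CUT&RUN, in which an antibody directs micrococcal nuclease to cut and release the DNA beside its target. Each genotype has 1 list of mm10 intervals with no score, height or p-value, so no value below has a replicate behind it and samples could not be tested against each other. The sources used here do not say how many clones each genotype represents. The KO list gives the background of the same antibody in cells labelled Trp53-/-, in which peaks alone cannot check the deletion, and its depth and that of the WT list are unknown.

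p53 is a transcription factor that is stabilised by DNA damage and other stress. It binds as a tetramer to a pair of decamers, called p53 half-sites, beside genes of cell cycle arrest, apoptosis, DNA repair and metabolism. Mdm2 degrades it, and Mdm2 is itself a p53 target. Peaks from an antibody to p53 can also arise at accessible chromatin without a p53 site, and cells without p53 measure that background.

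Sequence was read where a left-out peak reached a RefSeq promoter window, which runs from 250 bases before to 50 bases after a transcription start (build GRCm38.p6, the assembly of mm10). Of the 694 left-out peaks on chromosomes with such windows, 51 (7.35%, interval 5.52 to 9.55) touched one, and together they touched 70 windows of 58 genes. A window that shares 1 bp or more with a peak is called under the peak, and the peak over the window. The p53 half-site consensus, a 10-base pattern that reads the same on both strands, was in 8 of these 70 windows (11.4%, interval 5.07 to 21.3), against 8.36% of all 32851 windows. It was in 33 of 163 windows (20.2%, 14.4 to 27.2) under WT-specific peaks, in 38 of 447 (8.50%) under WT peaks shared with KO (overlapping a KO peak), and in 42 of 556 (7.55%) under KO peaks without a WT peak. The interval of the left-out windows held the value of all windows and overlapped the interval of the WT-specific ones. Windows of 1 gene can overlap, so they are not independent.

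All 8 distinct half-sites in windows touched by left-out peaks are shown with 10 bases on each side, half-site in capitals, because they are the only matches to the p53 pattern found beside the left-out peaks. Only those of Gm36199 at chr17:29434641-29434670 and of Gm28178 lay inside the peak itself. The other 6 lay 2 to 161 bp outside it. Strands are those of the gene, 5′ to 3′.
Gm36199 (chr17:29434641-29434670, +): ccagatgacaGGACATGCCCcgtgagacat
Gm36199 (chr17:29434838-29434867, +): gatgggccaaGGGCATGCCTgggaggctaa
Gm28178 (chr1:52580485-52580514, -): tatagaaataAGGCAAGCTCtctatacatt
Hsph1 (chr5:149636455-149636484, -): gatggaggccGGGCAAGCTCggtcagtttt
Nudt14 (chr12:112942121-112942150, -): cgtgtgaactGGGCATGCCCagaagtgcgt
Nudt14 (chr12:112942228-112942257, -): gctggcttggGGACTTGTCTgaaagcgcct
4931406H21Rik (chr14:25586798-25586827, +): tgtggttttaGGACATGCCTgttagttatg
Ube2d-ps (chr11:5761965-5761994, +): ctgcggtttcAGGCATGTCCtggtgcccag

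A pair of half-sites with 0 to 13 bases between them, the form that the p53 tetramer binds, was in 0 of the 70 windows under left-out peaks, a count that allows up to 5.13% (upper bound of the exact interval). It was in 24 of all 32851 windows (0.0731%) and in 3 of the 163 under WT-specific peaks. Those 3 are shown for comparison, with both matched half-sites in capitals, and each lay inside its WT-specific peak. Only matches to the consensus were counted, so the similar stretch tgacatgttc beside the Cdkn1a pair stayed in lower case. Pairs that depart from the consensus were not searched for, and which of the decamers p53 binds was not tested.
Cdkn1a (chr17:29090896-29090947, +): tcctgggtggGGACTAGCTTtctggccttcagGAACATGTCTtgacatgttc
D730003K21Rik (chr9:116327239-116327278, +): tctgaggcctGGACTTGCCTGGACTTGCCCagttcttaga
Gm51651 (chr1:155056314-155056353, +): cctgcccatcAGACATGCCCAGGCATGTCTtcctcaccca

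The 4-letter stretch CATG, common in p53 half-sites, was in 38 of the 70 windows under left-out peaks (54.3%, interval 41.9 to 66.3), against 103 of 163 (63.2%, 55.3 to 70.6) under WT-specific peaks and 61.1% of all windows. Among peaks under 250 bp, the half-site was in 7 of 49 windows under left-out peaks (14.3%, 5.94 to 27.2). It was in 3 of 34 under WT-specific peaks (8.82%, 1.86 to 23.7). Counted by gene, these shares were 5 of 42 (11.9%) and 3 of 33 (9.09%). The order of the lists turned round at these widths, but the window intervals were wide and overlapped, so it is not read as a difference. The half-sites of Hsph1, Nudt14 and Ube2d-ps, counted among the left-out windows here, lay outside the peak. The match is to letters only, and it covers the promoter windows and not the left-out peaks away from them.

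The left-out peaks were narrow. Their median width was 225 bp (95% interval of the median 219 to 229), with a middle range of 202 to 330 bp and extremes of 189 and 1016 bp. The WT-specific peaks had a median of 454 bp (444 to 465), the WT peaks shared with KO 286 bp (278 to 293) and the KO peaks without a WT peak 299.5 bp (293 to 306). Of the left-out peaks, 448 (62.9%) were under 250 bp, against 15.4% of the WT-specific peaks and 38.6% of the WT peaks shared with KO. Peaks of 500 bp or more were 7.58% of the left-out and 43.0% of the WT-specific list. Width belongs to the same intervals that chose the members, and the sources used here do not give the way the authors chose WT-specific peaks, so these values are a description with no test.

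**Figure D1:**
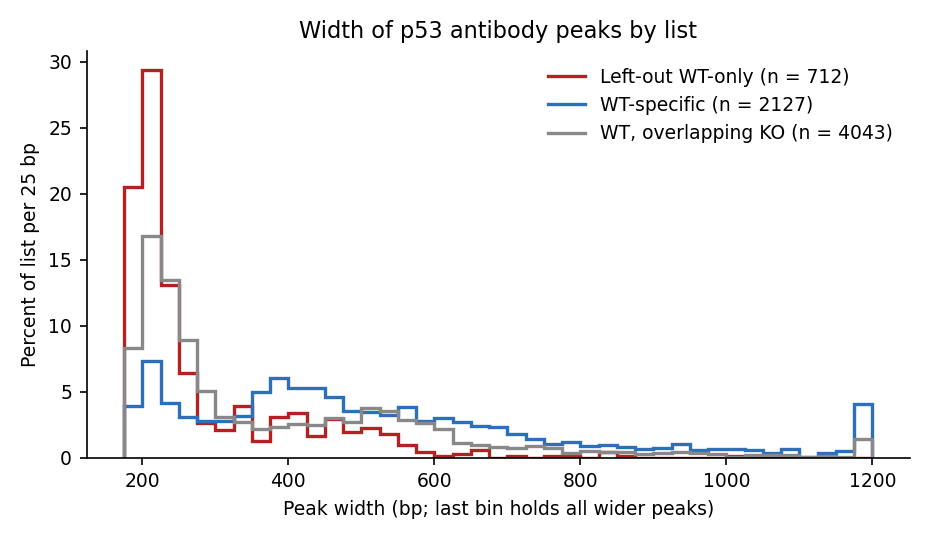
Distribution of peak width in bp (25 bp bins, with all wider peaks in the last bin) as a percentage of each list, for the 712 left-out WT-only peaks, the 2127 WT-specific peaks and the 4043 WT peaks that overlap a KO peak. The left-out peaks crowd at the narrow end, with a median of 225 bp against 454 bp for the WT-specific peaks.

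Width did not separate the lists cleanly. Among WT-only peaks, those that no KO peak overlapped, the share left out was 63.8% (146 of 229) under 200 bp, 57.3% (209 of 365) at 200 to 224 bp and 51.7% (93 of 180) at 225 to 249 bp. It was 34.9% at 250 to 299 bp, 25.6% at 300 to 349 bp, 11.9% at 350 to 399 bp and 15.3% at 400 to 499 bp. At 500 bp or more, 54 of 914 (5.91%, interval 4.47 to 7.64) were left out. Both lists reached the same lowest width of 189 bp, at which 21 left-out and 10 WT-specific peaks lay, so no width cut alone gives the WT-specific list. Of the WT peaks that did overlap a KO peak, few were in the WT-specific list at any width. The counts were 0 under 225 bp, 2 of 545 at 225 to 249 bp and 42 of 1062 at 500 bp or more. Of the 2127 WT-specific intervals, 71 overlapped a KO peak.

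**Figure D2:**
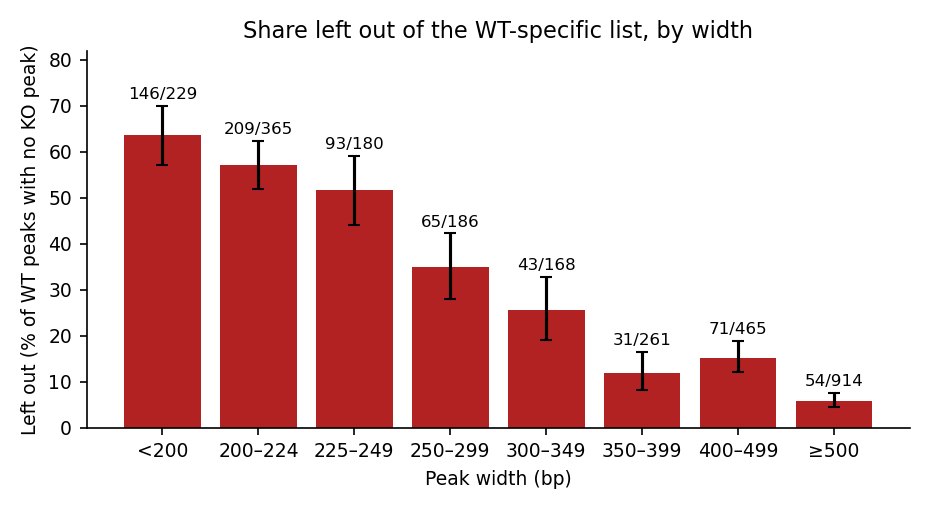
Share of WT-only peaks, those with no KO overlap, that is absent from the WT-specific list, by peak width in bp; bars give the percentage, whiskers its 95% exact binomial interval and the labels the counts. The share is 63.8% under 200 bp and 5.91% at 500 bp or more.

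Left-out peaks lay nearer to KO peaks than WT-specific peaks did. The median distance to the nearest KO peak was 30.2 kb (interval 25.4 to 35.5) for the left-out peaks and 104.5 kb (96.6 to 114.8) for the 2056 WT-specific peaks that overlapped no KO peak. A KO peak within 1 kb was found for 57 left-out peaks (8.01%, interval 6.12 to 10.2), against 38 WT-specific peaks (1.85%, 1.31 to 2.53). Among peaks under 250 bp the medians were 34.2 kb (28.7 to 45.0) for the 448 left-out and 84.3 kb (63.5 to 102.6) for the 326 WT-specific ones. Among peaks of 500 bp or more they were 29.0 kb (15.9 to 50.02) for the 54 left-out and 99.6 kb (85.9 to 119.6) for the 860 WT-specific ones, so the order was the same at matched widths. Absence of a KO overlap was part of the selection, and these distances are given with no test.

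At the edge of the 1 bp rule, the left-out peaks closest to a KO peak were 79 bp away at chr4:89446147-89446336, 129 bp away at chr5:91036579-91036781 and 144 bp away at chr19:42017704-42017944. Just outside the rule, the WT peaks with the smallest KO overlap shared 3 bp at chr1:184676003-184676246, 28 bp at chr10:24458623-24458856 and 49 bp at chr12:4219941-4220197. These 6 peaks were 190 to 257 bp wide.

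**Figure D3:**
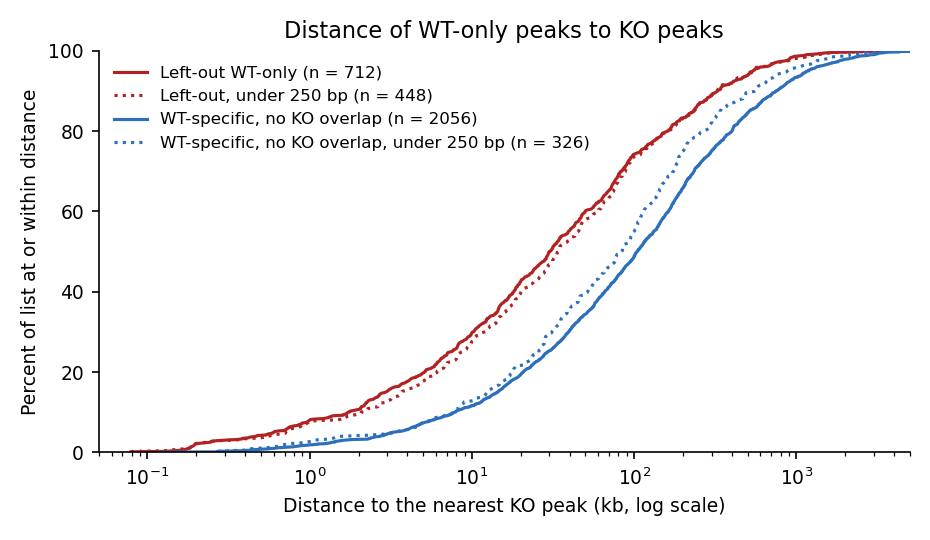
Cumulative percentage of peaks against distance to the nearest KO peak (kb, log scale), for all left-out WT-only peaks and those under 250 bp (dotted), and for the WT-specific peaks without KO overlap, all and under 250 bp (dotted). Over all widths the medians are 30.2 kb for the left-out and 104.5 kb for the WT-specific peaks.

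Distance to the WT-specific list itself set the left-out peaks less apart. A WT-specific peak lay within 5 kb of 40 left-out peaks (5.62%, interval 4.04 to 7.57), while 7.15% (6.09 to 8.32) of WT-specific peaks had another one and 3.19% (2.67 to 3.78) of the WT peaks shared with KO had one. Within 50 kb these shares were 26.0% for the left-out, 26.2% for the WT-specific and 18.1% for the shared peaks. None of the 712 lay on any of the 1619 repeat elements that the authors' annotation lists under WT-specific peaks, a count that the lack of overlap with WT-specific intervals nearly fixes. That annotation covers the WT-specific list alone, so the repeats under left-out peaks were not analysed here.

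The left-out peaks were spread over the chromosomes in other proportions than the peaks of the other lists. Chromosome 19 held 58 left-out peaks, 8.15% (interval 6.24 to 10.4), against 4.18% (3.37 to 5.12) of the WT-specific, 2.89% (2.40 to 3.46) of the shared WT and 1.39% (1.10 to 1.72) of the KO-only peaks. Chromosome 15 held 56, 7.87% (6.00 to 10.1), against 4.23% (3.42 to 5.18) of the WT-specific, 5.49% of the shared and 4.89% of the KO-only peaks. Chromosome 6 held 67, 9.41% (7.37 to 11.8), against 6.68% (5.65 to 7.82) of the WT-specific and 3.64% of the KO-only peaks, and the first 2 of these intervals overlap. Chromosome 1 also held 67, against 8.32% of the WT-specific peaks, with overlapping intervals.

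Chromosome 14, in contrast, held 16 left-out peaks, 2.25% (1.29 to 3.62), against 5.17% (4.27 to 6.2) of the WT-specific, 4.38% of the shared and 6.76% of the KO-only peaks. Chromosome 8 also held 16 (2.25%, 1.29 to 3.62), against 4.28% (3.46 to 5.23) of the WT-specific and 6.40% of the KO-only peaks. Chromosome 7 held 22 (3.09%, 1.95 to 4.64), where the WT-specific list had 4.80% (3.93 to 5.79). Chromosome 12 held 13 (1.83%, 0.976 to 3.10), where the WT-specific list had 3.06% (2.37 to 3.88). On chromosomes 7, 8 and 12 the left-out and WT-specific intervals overlap. Chromosome Y held 0, which allows up to 0.517% (upper bound of the exact interval), against 25 WT-specific peaks (1.18%). The line derives from ovarian tissue, and how reads came to be placed on chromosome Y was not tested. These Y counts are therefore not read as a difference between the lists.

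The same contrast can be read among all WT-only peaks. On chromosome 19, 40.3% (32.2 to 48.8) of these were left out, and on chromosome 15 38.6% (30.7 to 47.1), whereas 13.6% (7.95 to 21.1) were left out on chromosome 14 and 14.95% (8.80 to 23.1) on chromosome 8. Over all chromosomes the share was 25.7%. Chromosomes 1, 6, 15 and 19, grouped after their values were seen, held 34.8% (31.3 to 38.5) of the left-out, 23.4% (21.6 to 25.3) of the WT-specific and 17.5% of the KO-only peaks, with 17.99% of RefSeq genes. The left-out share was 34.2% under 250 bp and 36.0% at 250 bp or more, and the share of WT-specific peaks under 250 bp was 22.6% (18.2 to 27.5). These chromosomes were picked for their high left-out counts and the width classes hold the same peaks, so these shares are a description. The complete KO and WT lists also differed on chromosome 19, with 2.00% of all KO peaks and 3.83% of all WT peaks there. On chromosome 6 they had 4.71% and 6.78%, on chromosome 14 5.76% and 4.33%, and on chromosome 15 5.06% and 5.39%. The part of these differences between the complete lists in the shares of the left-out peaks was not tested. Chromosome 18, with 18 left-out peaks, is not among the RefSeq promoter windows and did not enter the window counts.

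**Figure D4:**
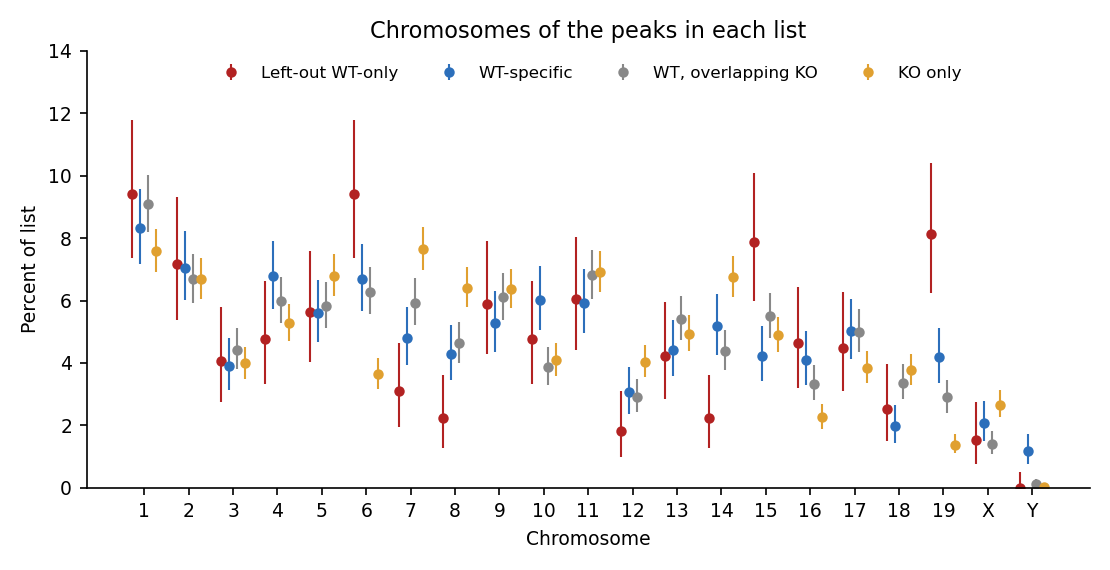
Percentage of each list on each chromosome, for left-out WT-only, WT-specific, shared WT and KO-only peaks, with 95% exact binomial intervals that cover counting error only. Chromosome 19 has 8.15% of left-out and 1.39% of KO-only peaks, while chromosome 14 has 2.25% of the left-out and 6.76% of the KO-only peaks.

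By position relative to genes, 449 left-out peaks (63.1%, interval 59.4 to 66.6) lay in a RefSeq gene span, against 50.9% (48.7 to 53.02) of WT-specific, 58.3% of shared WT and 58.7% of KO-only peaks. With 5 kb added on each side, 76.3% (73.0 to 79.3) of left-out peaks and 65.5% (63.5 to 67.6) of WT-specific peaks were at a gene. At under 250 bp the shares within gene spans were 62.1% (57.4 to 66.6) for left-out and 59.1% (53.6 to 64.5) for WT-specific peaks, with intervals that overlap. At 500 bp or more they were 64.8% (50.6 to 77.3) for left-out and 51.0% (47.7 to 54.3) for WT-specific peaks, again with overlapping intervals. A start of the RefSeq promoter table lay within 1 kb of 13.4% (11.0 to 16.2) of left-out and 11.2% (9.90 to 12.7) of WT-specific peaks. Exon and intron were not assigned, since the authors' feature annotation covers the WT-specific list alone and the RefSeq table gives whole gene spans.

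Fewer p53 target genes had a left-out peak than had a WT-specific one. Of 118 genes on 7 lists of p53 targets, 4 (3.39%, interval 0.931 to 8.45) had one in the gene span with 5 kb on each side, where 1.32% of all 49980 RefSeq genes did. The same count was 45 (38.1%) for the WT-specific list against 3.32% of all genes, 17 (14.4%) for the shared WT peaks against 5.68%, and 16 (13.6%) for the KO-only peaks against 7.73%. Listed targets are longer than most genes, with a median of 17.7 kb against 5.94 kb, and the part of length in these shares was not tested. Among protein-coding genes, 3 of 105 listed targets (2.86%) had a left-out peak, against 2.03% of all. The share of targets was above that of all genes, on a count of 4 whose interval held the share of all genes. With 50 kb on each side, 15 targets (12.7%) had a left-out peak against 4.21% of all genes, and 55 (46.6%) had a WT-specific one against 11.9%.

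Each role had 0 or 1 target with a left-out peak, counts too low to set against the 1.32% of all genes or to tell the roles apart. For WT-specific peaks the share of all genes was 3.32%. Of 17 cell cycle and mitosis genes 0 had a left-out peak and 9 had a WT-specific one. Of 10 genes of the feedback on p53, Mdm2 among them, 0 had a left-out and 4 a WT-specific peak. Of 25 metabolism and stress genes the counts were 0 and 8. Cell death had 1 of 24 with a left-out and 11 with a WT-specific peak, DNA repair 1 and 3 of 12, secreted and cell surface proteins 1 and 5 of 18, and noncoding RNA genes 1 and 5 of 12. At widths under 250 bp, 1 of the 118 targets had a left-out peak where 0.884% of all genes did, and 7 had a WT-specific peak where 0.586% did. Those 7 were Plk3, Tnfrsf10b, Zmat3, Phlda3, Bcl2l1, Aldh4a1 and Neat1, with 448 left-out and 328 WT-specific peaks in these counts.

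**Figure D5:**
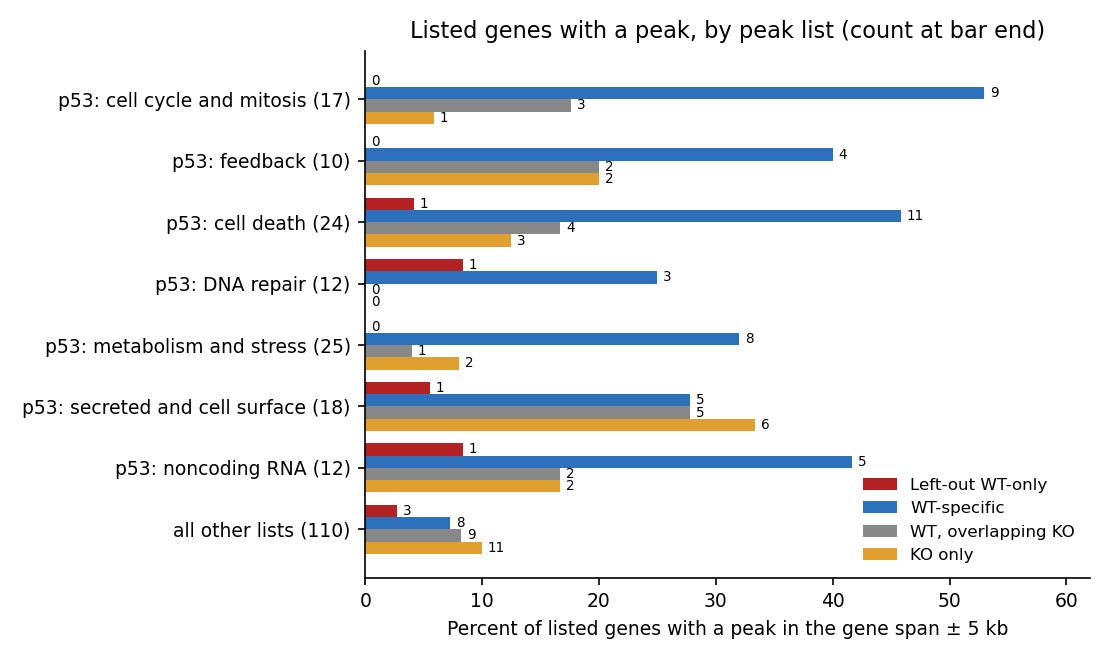
Percentage of listed genes with a peak in the gene span or within 5 kb of it, for 7 lists of p53 targets and for the 7 other lists together, with 1 bar per peak list, the number of genes at its end and the list size in parentheses. Left-out peaks reach 0 or 1 gene in each p53 list, where WT-specific peaks reach 3 to 11.

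Among the cell death genes the 1 was Bcl2l1, which encodes the antiapoptotic protein Bcl-xL (RefSeq gene 12048, chr2:152758732-152833803). Its peak at chr2:152820418-152821433 was 1016 bp wide, the widest of all 712, and lay inside the gene 7055 bp from its annotated start. Around it, the Bcl2l1 span held 3 WT-specific peaks of 198 to 908 bp, 6 WT peaks shared with KO of 319 to 919 bp and 2 KO-only peaks of 206 and 276 bp. The nearest KO peak was 2.14 kb away, so Bcl2l1 was a place of many peaks in both genotypes.

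Xpc, a DNA damage sensor of nucleotide excision repair (gene 22591, chr6:91489305-91515888), had a left-out peak of 261 bp at chr6:91488737-91488997, 307 bp outside its span. The peak lay beyond the low-coordinate end of the span, and its distance to an Xpc start was not measured. Among the starts of the RefSeq promoter windows, the nearest was that of Gm52912, 1232 bp away. Xpc had no WT-specific, shared or KO-only peak within 5 kb and is the 1 listed target of the 4 that the left-out peaks alone reach. Notch1, a cell surface receptor (gene 18128, chr2:26457902-26503822), had one of 392 bp at chr2:26458545-26458936, inside the gene and 44885 bp from its start. Its WT-specific peak of 359 bp lay at chr2:26506790-26507148, beyond the opposite end of the gene.

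Neat1, the long noncoding RNA on which paraspeckles form (gene 66961, chr19:5824708-5845480), had 2 left-out peaks. One of 269 bp at chr19:5841929-5842197 lay inside the gene, 2.05 kb from a WT-specific peak of 2424 bp at chr19:5837459-5839882. The other, of 217 bp at chr19:5850053-5850269, lay 4572 bp beyond the gene span. A second WT-specific peak of 201 bp lay at chr19:5832174-5832374. No KO peak was nearer than 42.3 kb to these left-out peaks.

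Among 110 genes of the 7 other lists, 3 had a left-out peak (2.73%, against 1.32% of all genes) and 8 a WT-specific one (7.27%, against 3.32%). A shared peak was at 9 (8.18%, against 5.68%) and a KO-only peak at 11 (10%, against 7.73%). No gene for sensing of RNA or DNA (19 genes), for the interferon response (20) or for antigen presentation (13) had a left-out peak, and neither did any of 14 leukocyte markers. At the share of all genes, lists of this size would also mostly hold 0, so nothing is read from these zeros. Zfp809 was 1 of 22 genes of repeat silencing. It encodes a zinc finger protein that recruits Trim28 to silence endogenous retroviruses of the murine leukemia virus kind. Its left-out peak of 192 bp at chr9:22225768-22225959 lay 55 bp downstream of an annotated start of the gene (gene 235047, chr9:22225667-22254117), and a WT-specific peak of 671 bp at chr9:22226763-22227433 lay 0.803 kb further on. The nearest KO peak was 269.8 kb away.

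The other 2 were markers of cell types. Krt19, a keratin of simple epithelia, had a left-out peak of 473 bp at chr11:100145064-100145536, with a KO peak 0.559 kb away and a WT-specific peak of 373 bp 5.25 kb away. Pecam1, an endothelial adhesion molecule, had one of 496 bp at chr11:106674582-106675077, with 1 shared and 1 KO-only peak elsewhere at the gene. Peaks tell nothing of the expression of either gene.

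Most genes reached by left-out peaks were reached once. Of 661 genes with a left-out peak in the span or within 5 kb, 617 had 1, 37 had 2, 3 had 3 and 4 had 4. A WT-specific peak was present at 129 of them, which is 19.5% of the genes with a left-out peak and 7.78% of the 1659 genes with a WT-specific peak. Of all RefSeq genes, 3.32% had a WT-specific and 1.32% a left-out peak. The genes with a left-out peak had a median length of 35.1 kb and those with a WT-specific peak 27.8 kb, against 5.94 kb for all genes.

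The genes with the most left-out peaks included 2 of Wnt signalling. Bcl9l, a coactivator of beta-catenin (chr9:44482738-44511906), had 4, of 227, 834, 511 and 278 bp, within 11.7 kb, and no WT-specific peak. Within that stretch lay 1 WT peak shared with KO. KO peaks lay 2.54 to 8.08 kb from the 4 left-out peaks. Tcf7l2, the DNA-binding partner of beta-catenin (chr19:55741797-55933659), had 3, of 445, 253 and 240 bp, with neither a WT-specific, a shared nor a KO-only peak within 5 kb of the gene. The nearest KO peaks were 29.9 to 86.5 kb from these 3. Both genes were named by their number of peaks, and no list of Wnt genes was tested.

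Antxr1, an anthrax toxin receptor of the cell surface (chr6:87133853-87335809), had 4 left-out peaks of 250 to 504 bp, spaced over 33.2 kb. It also had 3 WT-specific peaks and 1 shared peak. The same 4 left-out peaks count for the overlapping long noncoding RNA gene Gm38851. Cald1, which encodes the actin-binding protein caldesmon, had 3 left-out, 0 WT-specific, 3 shared and 1 KO-only peak. Lpp, which encodes a focal adhesion protein, had 3 left-out, 1 WT-specific and 4 shared peaks over 599 kb. The long noncoding RNA gene Gm9530 (chr1:155063447-155083264) had 4, of 196 to 306 bp within 11.2 kb and 8.44 to 16.6 kb from the nearest WT-specific peaks.

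In windows of 100 kb, no stretch held more than 4 left-out peaks, and 6 stretches held that many. Gm9530, Antxr1, Bcl9l and Tcf7l2 were at 4 of these. Another lay at chr17:79739003-79832404, with no protein-coding gene. The last lay near the start of the assembled part of chromosome 9, at chr9:3010148-3033507. There, 6 WT peaks shared with KO fell between or beside the left-out peaks, and no protein-coding gene was annotated. No filter for regions prone to background signal was applied here, and how reads came to be placed in this stretch was not tested.

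The 10 widest left-out peaks ran from 666 to 1016 bp. After the Bcl2l1 peak came one of 862 bp inside Ppcdc, an enzyme gene of coenzyme A synthesis (chr9:57432978-57433839, 4.20 kb from a WT-specific peak), and one of 845 bp inside Gxylt2, a xylosyltransferase gene (chr6:100709423-100710267). The others inside genes were in Bcl9l (834 bp), in the long noncoding RNA gene Morrbid (766 bp, chr2:128365638-128366403) and in Pacsin2, a membrane-shaping protein gene (666 bp, chr15:83441043-83441708). The other 4 lay outside every RefSeq gene span, on chromosomes 1, 10, 15 and X, and were 672 to 837 bp wide. At the narrow end 21 peaks had the lowest width of 189 bp, the first 5 of them in genome order at 1110002O04Rik, Gm30694, Gm11476, Cyp51 and Mob1a. The peaks at Cyp51, a sterol synthesis enzyme gene, and Mob1a, a Hippo pathway regulator gene, shared 67 and 17 bp with their promoter windows.

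The 51 left-out peaks over promoter windows had a median width of 211 bp and a range of 189 to 547 bp. Of these, 7 touched the windows of 2 genes and 44 those of 1. The widest were at Mbd6, a methyl-CpG-binding domain protein gene (547 bp, chr10:127289066-127289612), at Gm19705 (526 bp) and at Lpp (509 bp, chr16:24393182-24393690, where the gene Lppos also lies). Zfp64, a zinc finger gene, followed with 498 bp, Gm31845 with 493 bp and the kinase gene Stk38 with 482 bp. Med18, a subunit gene of the Mediator complex, had 403 bp, 4931406H21Rik 402 bp, Gm34150 400 bp and Itgb3bp, which encodes the centromere protein CENP-R, 387 bp.

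Narrower ones were at Ppp1r12c (344 bp), a myosin phosphatase subunit gene, at Upp1 (337 bp), the uridine phosphorylase gene, and at Smarca2 (294 bp), the gene of a chromatin remodelling ATPase. Those at Micall1 (274 bp), Irf2bpl (241 bp), Sgf29 (234 bp), Gm51739 (229 bp), Pi4kb (227 bp), Arl2 (218 bp) and Atrnl1 (218 bp) completed the 20 widest. None of these genes was on a p53 list. The distance to the nearest KO peak ran from 0.475 kb at 4931406H21Rik to 800.6 kb at Zfp64.

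The promoter peaks also reached 3 genes of 1 protein complex, which was noticed after the list was read. Imp3, Imp4 and Mphosph10 encode the proteins that, together, join the U3 small nucleolar RNA in the processing of ribosomal RNA. The Imp3 peak was 198 bp wide (chr9:56937515-56937712), the Imp4 peak 192 bp (chr1:34439497-34439688) and the Mphosph10 peak 208 bp (chr7:64392354-64392561). The nearest KO peaks were 29.5, 316.0 and 81.9 kb away, and the nearest WT-specific peaks 264.8, 1033 and 64.0 kb. The Imp3 peak lay 14 bp downstream of the Imp3 start. It shared 35 bp with the Imp3 window, a stretch without a half-site that is not printed below. For the other 2 peaks the nearest start was that of another gene, on the opposite strand. The Imp4 peak lay over a start of Ccdc115, and shared 66 bp with the Ccdc115 window and 110 bp with the Imp4 window. The Mphosph10 peak lay nearest to the start of Mcee, 60 bp away. It shared 190 bp with the Mcee window and 133 bp with the Mphosph10 window. With 58 genes in the list, no test of this coincidence was made.

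The stretches of the Imp4 and Mphosph10 windows that lie under their peaks are shown, since they carry no p53 half-site, beside the Gm36199 and Gm28178 stretches that carry one in capitals. They are from the gene's strand, 5′ to 3′. Their GC contents were 54.5% for Imp4, 46.6% for Mphosph10, 56.7% for Gm36199 and 37.6% for Gm28178.
Imp4 (chr1:34439579-34439688, +): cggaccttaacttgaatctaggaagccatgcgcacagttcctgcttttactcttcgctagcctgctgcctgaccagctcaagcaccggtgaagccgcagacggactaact
Mphosph10 (chr7:64392354-64392486, -): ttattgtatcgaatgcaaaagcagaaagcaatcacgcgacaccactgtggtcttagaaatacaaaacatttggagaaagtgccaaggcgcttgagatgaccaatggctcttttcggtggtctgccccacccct
Gm36199 (chr17:29434568-29434687, +): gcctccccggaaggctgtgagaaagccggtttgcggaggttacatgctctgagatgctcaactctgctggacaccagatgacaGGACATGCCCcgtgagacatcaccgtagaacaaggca
Gm28178 (chr1:52580394-52580542, -): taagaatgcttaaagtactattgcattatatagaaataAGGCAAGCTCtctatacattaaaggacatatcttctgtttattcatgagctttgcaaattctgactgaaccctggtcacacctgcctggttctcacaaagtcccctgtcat

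The 3 further promoter peaks named here, also picked after the list was read, were at genes of immune or stress function. Cd47, whose protein restrains phagocytosis by macrophages, had a left-out peak of 197 bp at chr16:49855375-49855571, inside the RefSeq gene span and upstream of both starts in the promoter table, with a KO peak 3.28 kb away. Uba7, the activating enzyme for the ubiquitin-like protein Isg15, had one of 192 bp at chr9:107975587-107975778, with no KO peak nearer than 65.1 kb. Hsph1, a heat shock protein gene, had one of 200 bp at chr5:149636476-149636675, 2 bp from the half-site printed above. The nearest WT-specific peaks were 844.6, 342.0 and 44.0 kb from these peaks.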

How the data were processed

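CUT&RUN with a p53 antibody was done on 2 Trp53 KO and 2 Trp53 WT samples of 21 in the series, and 16 histone modification libraries and 1 IgG library were not analysed here. The authors deposited 6 tables of p53 peaks or annotations of them, with a chromosome, a start and an end per peak, per the file headers. Build mm10 and the tools MACS2, Bowtie2, fastp and deepTools are listed in the submitters' processing notes. The sources used here give no versions, settings or rule for WT-specific peaks, nor do they say whether calling used pooled or separate reads. Starts were read as 0-based and are printed 1-based.

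Intervals were compared in Python 3.11.15 (numpy 2.4.6, pandas 2.3.3, scipy 1.17.1), and the overlap code was tested on simulated data against bedtools 2.31.1. Agreement was required for the 1 bp overlap and for distance windows. It was not required for the share of a peak that is covered, which here sums all KO peaks. Genes came from the RefSeq table of GRCm38.p6 (49980 placed genes) and promoters from 32851 RefSeq windows, which do not include chromosome 18. All 228 listed genes matched. A gene counted as reached when its span with 5 kb on each side overlapped a peak by 1 bp. Intervals at 95% are exact binomial ones (Clopper-Pearson) for shares and order-statistic ones for medians. Both treat peaks as independent and cover counting error only. Depth is unknown. The regions, the 14 gene lists (from general knowledge) and the comparisons were chosen with earlier results of these data known. No enrichment test was used.

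Named were the list genes with a left-out peak, the 10 widest and 5 narrowest peaks, the 3 on each side of the overlap rule, genes with 3 or more peaks, the densest 100 kb stretches and the 20 widest promoter peaks. Others are said to be picked after their values were seen. The alternatives cover the overlap and identity rules, chromosomes, width, gene window and gene type.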

Additional observations from a re-analysis of the deposited data

How the results depend on the processing

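The number of left-out peaks, 712 as reported, was 834 where KO peaks together had to cover 50% of the WT peak. It was 682 where a KO peak within 500 bp also counted, and 357 among left-out peaks of at least the median width. Their median width of 225 bp was 235 bp under the 50% rule and 330 bp in the wider 357. The share at a gene with 5 kb added, 76.3%, was 63.1% with the gene span alone, 83.4% with 10 kb, 95.9% with 50 kb and 61.5% with protein-coding genes only. Listed p53 targets with a left-out peak, 4 of 118, stayed between 3 and 5 in all alternatives except the window of 50 kb, where 15 (12.7%) had one against 4.21% of all genes. In that window 55 had a WT-specific, 44 a shared and 41 a KO-only peak. The share with a WT-specific peak within 5 kb, 5.62%, was 2.11% within 1 kb, 9.41% within 10 kb and 26.0% within 50 kb. The share on chromosome 19, 8.15%, was 7.43% under the 50% rule and 7.92% under the 500 bp rule. Listed targets with a WT-specific peak, 45 at all widths, were 7 at widths under 250 bp and 45 without the peaks that overlap KO; these last 2 alternatives were chosen after seeing the data. The moves with gene and distance windows follow from the window size, that to protein-coding genes from fewer genes, and those in the wider peaks from the width limit. For the median width under the 50% rule the cause was not tested. No paired analysis was possible because each genotype has 1 list of peaks, and no replicate could be left out for the same reason. With no depth or score in the files, whether a peak missed in KO was below detection there was not tested.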
